A study of Homo sapiens with 2 samples.

Results

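Binding of RUNX2 and MTA1 in MDA-MB-231 cells was examined around 9 genes of growth factor signalling. These were the receptor genes EGFR, ERBB2, ERBB3, MET and AXL and the ligand genes AREG, EREG, HBEGF and TGFA. For each gene, every peak was taken that lay inside the gene or within 50 kb of it in the NCBI RefSeq annotation of GRCh38. This gave 96 of 61700 RUNX2 peaks and 91 of 42683 MTA1 peaks on chromosomes 1 to 22, X and Y. AREG and EREG lie so close together that they share 1 peak of each list, which was counted once in these totals. The study profiled genome-wide occupancy of RUNX2, a DNA-binding transcription factor, and of MTA1, which belongs to the nucleosome remodelling and deacetylase complex NuRD, to find their target genes. MDA-MB-231 is an established human breast cancer line of the triple-negative type, grown for both libraries in DMEM with serum and with no drug or gene perturbation named in the labels. There was 1 CUT&Tag library per antibody, and no control library was analysed here. In CUT&Tag, an antibody directs a transposase to chromatin and the fragments cut near the bound protein are sequenced.

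EGFR, ERBB2 and ERBB3 are receptors of the ERBB family, which signal as dimers through RAS, PI3K and STAT proteins. AREG, EREG, HBEGF and TGFA are made as membrane-bound precursors, are shed by ADAM proteases and bind EGFR, and EREG and HBEGF also bind ERBB4. ERBB2 has no known ligand of its own, and ERBB3 has little kinase activity and depends on its partners. MET is the receptor for hepatocyte growth factor and AXL is the receptor for GAS6, and both are known for crosstalk with EGFR in invasive cancer cells. RUNX proteins recognise a short DNA core written TGTGGT or TGCGGT, whereas MTA1 is brought to DNA largely by partner proteins.

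A peak is an interval that the authors called as enriched in a library, and each one carries a score. The scale of the score was not given, so each peak is described by its score rank, the percent of peaks in its own list with a lower score. The highest decile comprises ranks from 90 upward. Ranks in different lists are positions within those lists and do not measure equal amounts of protein. With 1 library per antibody there was no replicate and no test could be made, and intervals given for shares are exact (Clopper-Pearson) 95% intervals that cover counting error over peaks only. Total reads per library are unknown, so a missing peak can be a weak signal as well as an absent one. Peaks do not measure RNA, so neither the expression of these genes nor markers of the cell line could be checked.

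Coordinates are those of the lists. The submitters' notes name hg19, but 140 RUNX2 and 122 MTA1 peaks start beyond the hg19 end of chromosome 17, and 77 and 75 do so on chromosome 20. The positions fit GRCh38, which was used throughout. Whether a peak inside a gene is exonic or intronic was not analysed here.

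The promoter sequences show what lies under the peaks at the gene starts. RefSeq promoter windows, from 250 bases before to 50 bases after a start on GRCh38.p14, were found for 8 of 9 members, with 11 windows in all. ERBB3 had no entry. The windows of the outermost starts with peaks of both lists are given below, 5′ to 3′ on the strand of the gene. Capitals mark the bases that lay inside a RUNX2 peak and an MTA1 peak together.
EGFR (chr7:55018767-55019066, plus strand): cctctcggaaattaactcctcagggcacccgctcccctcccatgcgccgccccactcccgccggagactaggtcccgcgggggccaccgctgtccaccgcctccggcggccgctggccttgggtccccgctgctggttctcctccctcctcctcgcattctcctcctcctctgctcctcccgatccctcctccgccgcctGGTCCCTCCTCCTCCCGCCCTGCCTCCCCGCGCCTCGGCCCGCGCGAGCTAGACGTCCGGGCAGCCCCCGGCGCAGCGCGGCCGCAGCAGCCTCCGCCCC
ERBB2 (chr17:39687844-39688143, plus strand): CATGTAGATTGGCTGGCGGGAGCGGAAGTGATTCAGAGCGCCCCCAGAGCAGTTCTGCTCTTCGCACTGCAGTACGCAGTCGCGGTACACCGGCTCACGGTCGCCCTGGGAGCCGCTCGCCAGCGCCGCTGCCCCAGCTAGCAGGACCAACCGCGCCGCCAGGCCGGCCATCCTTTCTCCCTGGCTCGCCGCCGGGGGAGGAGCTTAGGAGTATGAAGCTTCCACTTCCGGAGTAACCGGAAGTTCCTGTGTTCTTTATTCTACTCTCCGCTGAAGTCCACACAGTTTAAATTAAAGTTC
MET (chr7:116671946-116672245, plus strand): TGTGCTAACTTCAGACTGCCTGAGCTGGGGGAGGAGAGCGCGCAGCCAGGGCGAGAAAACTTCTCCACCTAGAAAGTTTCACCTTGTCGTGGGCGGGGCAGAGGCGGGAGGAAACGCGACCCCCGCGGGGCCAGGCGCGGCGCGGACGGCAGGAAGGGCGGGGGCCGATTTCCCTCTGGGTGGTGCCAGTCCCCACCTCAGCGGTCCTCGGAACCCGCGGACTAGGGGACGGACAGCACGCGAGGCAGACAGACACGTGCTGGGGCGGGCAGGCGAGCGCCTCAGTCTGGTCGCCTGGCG
AXL (chr19:41218973-41219272, plus strand): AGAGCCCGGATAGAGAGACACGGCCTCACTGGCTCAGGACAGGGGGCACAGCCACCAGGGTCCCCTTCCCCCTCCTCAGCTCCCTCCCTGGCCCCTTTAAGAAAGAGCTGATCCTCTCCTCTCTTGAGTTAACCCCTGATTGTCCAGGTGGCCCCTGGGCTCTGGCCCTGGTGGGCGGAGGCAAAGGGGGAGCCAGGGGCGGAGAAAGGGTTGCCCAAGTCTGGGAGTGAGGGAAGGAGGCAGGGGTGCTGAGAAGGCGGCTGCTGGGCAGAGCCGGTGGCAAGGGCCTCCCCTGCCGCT
HBEGF (chr5:140346554-140346853, minus strand): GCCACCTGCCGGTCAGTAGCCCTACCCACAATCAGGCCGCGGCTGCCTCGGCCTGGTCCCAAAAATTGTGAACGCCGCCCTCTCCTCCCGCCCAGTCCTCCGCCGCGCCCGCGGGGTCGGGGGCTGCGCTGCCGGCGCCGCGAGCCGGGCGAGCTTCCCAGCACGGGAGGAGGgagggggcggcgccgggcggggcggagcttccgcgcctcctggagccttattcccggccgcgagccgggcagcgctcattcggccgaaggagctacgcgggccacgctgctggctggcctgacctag
TGFA (chr2:70553777-70554076, minus strand): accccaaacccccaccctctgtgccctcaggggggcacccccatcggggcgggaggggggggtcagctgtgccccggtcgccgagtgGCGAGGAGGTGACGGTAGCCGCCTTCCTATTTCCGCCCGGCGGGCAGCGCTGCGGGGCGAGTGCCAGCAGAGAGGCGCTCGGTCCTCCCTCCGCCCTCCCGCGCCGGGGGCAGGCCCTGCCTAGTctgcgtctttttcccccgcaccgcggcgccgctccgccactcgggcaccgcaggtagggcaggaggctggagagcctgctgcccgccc

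All 300 bases of the ERBB2, MET and AXL windows lay under both peaks. In the HBEGF window 173 bases did, in the TGFA window 125, and in the EGFR window 100, which is its downstream end. The EGFR, TGFA and HBEGF windows were 75.3%, 75.3% and 75% G or C, those of MET, AXL and ERBB2 69.3%, 66% and 60.7%, and the median over all windows of protein-coding genes was 62.3%. The AXL window stood out in this set by its few CG pairs, 7 against 24 to 38 in the other 5. The windows of AREG and EREG, 66.3% and 57.7% G or C, held no peak of either list. Of the 11 windows, 7 were touched by a RUNX2 peak and 6 by an MTA1 peak, while over 22198 windows of protein-coding genes the shares were 37.5% and 40.7%.

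The RUNX core, TGTGGT or TGCGGT on either strand, occurred in 1 of 11 windows, against 19% of all windows. The match was ACCGCA, the reverse complement of TGCGGT, at position 259 of the TGFA window printed above, which is base 9 after the start when counted from 1 at the start. It lay inside the MTA1 peak there and outside the RUNX2 peak. Over all windows, 21.4% of those with a RUNX2 peak and 17.5% of those without one held either core. The order was the other way round for TGTGGT alone, at 10.1% and 12% of windows, and for the longer TGTGGTT, at 3.21% and 3.99%. These are matches of letters only, and the peaks themselves were not searched.

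Every member had peaks of both lists, and most receptor regions held many. EGFR, whose region of gene and flanks is the longest at 293 kb, held 20 RUNX2 and 21 MTA1 peaks. AXL held 15 and 10, ERBB3 13 and 13, ERBB2 9 and 10, and MET 7 and 8. Among the ligands, TGFA held 15 and 10, HBEGF 12 and 10, EREG 4 and 5, and AREG 2 and 5. The presence of a peak set no member apart, since 90.8% of 20033 protein-coding genes had a RUNX2 peak in such a region, 86.6% an MTA1 peak and 80.1% an overlapping pair, and all 9 members had each of these. Relative to their length, the regions of ERBB3, HBEGF and AXL were densest in RUNX2 peaks, with 10.5 per 100 kb each. EGFR had 6.83, MET 3.09 and AREG 1.82. Many of these peaks lay nearest to a neighbouring gene. Inside the member or nearest to it were 3 of the 13 RUNX2 peaks at ERBB3, 4 of 15 at AXL, 6 of 12 at HBEGF, 2 of 9 at ERBB2 and 2 of 4 at EREG. All of those at EGFR, TGFA, MET and AREG were. For MTA1 the numbers were 4 of 13 at ERBB3 and 4 of 10 at each of AXL, HBEGF and ERBB2, and all at EGFR and TGFA.

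**Figure D1:**
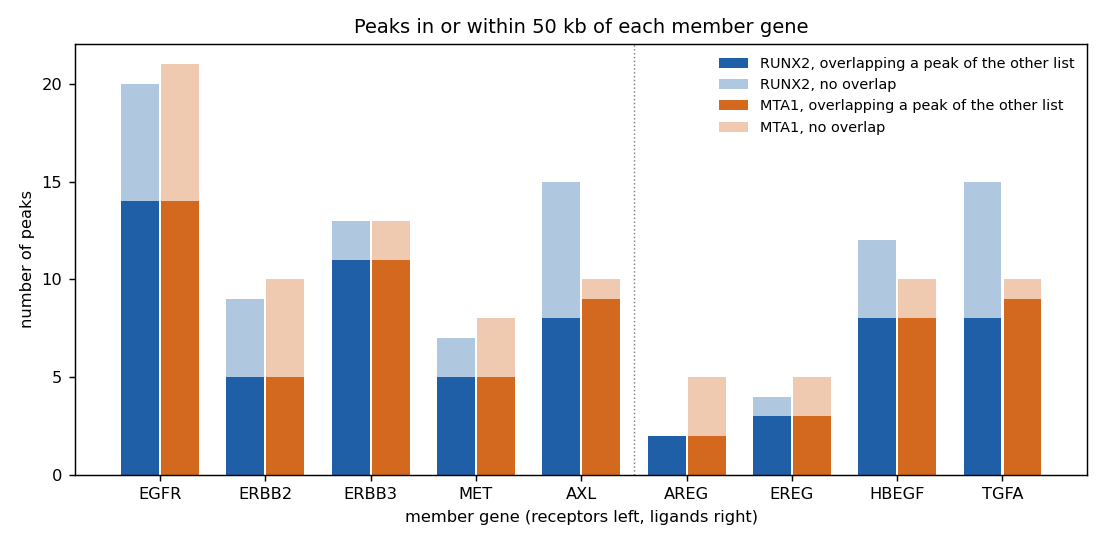
Number of peaks inside or within 50 kb of each member gene, with RUNX2 in blue and MTA1 in orange. Dark bars count peaks that overlap a peak of the other list and pale bars those that do not. EGFR has 20 RUNX2 and 21 MTA1 peaks, and AREG 2 and 5.

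Strong peaks were found at 7 of 9 members in the RUNX2 list and at 6 of 9 in the MTA1 list, where 38.8% and 38.9% of protein-coding genes had a peak of the highest decile. ERBB2 and EREG had none from RUNX2, and AREG, EREG and TGFA none from MTA1. Of the 96 RUNX2 peaks 14 were in the highest decile (14.6%, interval 8.21% to 23.3%), and of the 91 MTA1 peaks 13 were (14.3%, 7.83% to 23.2%). Many of them were closer to a neighbouring gene. Of the 14 RUNX2 peaks, 4 lay inside a member, 5 outside but nearest to a member and 5 nearest to another protein-coding gene. Of the 13 MTA1 peaks these numbers were 5, 2 and 6.

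At EGFR the strong peaks lay within the gene and beyond its end, not at its start. The start carried a RUNX2 peak of rank 39.9 (chr7:55018954-55019112) and an overlapping MTA1 peak of rank 2.54, with a further MTA1 peak of rank 16.9 centred 219 bp before it. The highest RUNX2 rank, 95.7, belonged to chr7:55132701-55133187, which lies 114 kb into the gene and overlapped an MTA1 peak of rank 91.3. A second shared site about 1 kb on had ranks of 89.1 and 85.8. The highest MTA1 rank, 98.3, belonged to chr7:55073978-55074460 at 55.2 kb into the gene, where the RUNX2 peak ranked 89.4, just under the highest decile. Downstream of EGFR, within the non-coding gene ELDR, the RUNX2 peak chr7:55250346-55250638 ranked 92.2 and its MTA1 partner 81.4. Below the highest decile, RUNX2 peaks of rank 88.6 and 82.1 inside the gene overlapped no MTA1 peak. In all, 14 peaks of each list at EGFR overlapped the other list, which left 6 RUNX2 and 7 MTA1 peaks alone.

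The strongest peaks of the ERBB2 region lay at the outermost start of the gene, the only start of ERBB2 listed among the promoter windows. There the MTA1 peak chr17:39687803-39688172 ranked 95.5, and the RUNX2 peak chr17:39687822-39688145 ranked 81.5, the highest of each list in the region. These peaks cannot be given to ERBB2 alone, because they also overlap PGAP3, whose start lies 74 bp from the centre of the RUNX2 peak. Within the ERBB2 gene the remaining peaks were weak, with a RUNX2 rank of 29.3 and MTA1 ranks of 21.8, 14.9 and 9.26, and none of these was shared. The MTA1 peak of rank 21.8 was centred 11.8 kb after the outermost start. Starts further inside ERBB2 were not listed, so whether any of these peaks lies at one was not analysed. The next strongest pair, with ranks of 78.4 for RUNX2 and 88.9 for MTA1, lay beyond the gene and nearest to IKZF3.

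At ERBB3 the strongest peaks of the region lay nearest to neighbouring genes. The pair over PA2G4 ranked 94.2 for RUNX2 and 99.8 for MTA1, the highest MTA1 rank at any member. The pair between RPL41 and ZC3H10 ranked 92.1 and 99.4, the pair at ESYT1 91.5 and 99.4, and at MYL6B the MTA1 peak ranked 91.4 with a RUNX2 partner of rank 61.3. All of these were centred within 200 bp of the start of one of those genes. At the lower-coordinate end of ERBB3 itself the ranks were 65.7 for RUNX2 (chr12:56079826-56080125) and 61 for MTA1, with a further shared pair of 59.6 and 53.8 beside it. Inside the gene the other peaks ranked 15.3 for RUNX2 and 1.87 for MTA1, and did not overlap. The ERBB3 region had the largest shared part of any receptor region in the RUNX2 list, 11 of 13 peaks (84.6%). Most of these shared peaks lay nearest to neighbouring genes.

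MET resembled EGFR in having its strongest site inside the gene. At 44.7 kb from the start, the RUNX2 peak chr7:116716700-116716995 ranked 91 and the MTA1 peak chr7:116716679-116716987 ranked 93.7. The start itself was covered by broader peaks of rank 50 for RUNX2 (557 bp wide) and 62.4 for MTA1 (438 bp wide). Upstream of the start, in the non-coding gene COMETT, an MTA1 peak of rank 91.3 stood alone at 41.1 kb, the one member peak of the highest decile in either list without a partner. In the same gene, 18.8 kb upstream, the order was the other way round, with a RUNX2 peak of rank 86.6 over an MTA1 peak of rank 24.4.

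AXL had a strong site between its listed starts. The RUNX2 peak chr19:41225624-41226537, which is 914 bp wide, ranked 97.6 and was centred 675 bp before the second listed start, 6.86 kb after the first. It overlapped 2 MTA1 peaks, of rank 94.7 (chr19:41225618-41226125) and 9.13. At the first start, shown in the sequence above, the ranks were 75.7 for RUNX2 and 71.9 for MTA1, and a pair 4.5 kb into the gene had ranks of 87.7 and 76.9. Downstream, the neighbour HNRNPUL1 held the pair chr19:41263692-41264322, with ranks of 94.3 for RUNX2 and 98.9 for MTA1, and a RUNX2 peak of rank 91.5 over an MTA1 peak of rank 66.1. Of the 15 RUNX2 peaks at AXL 7 had no MTA1 partner, while 9 of the 10 MTA1 peaks had a RUNX2 partner.

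**Figure D2:**
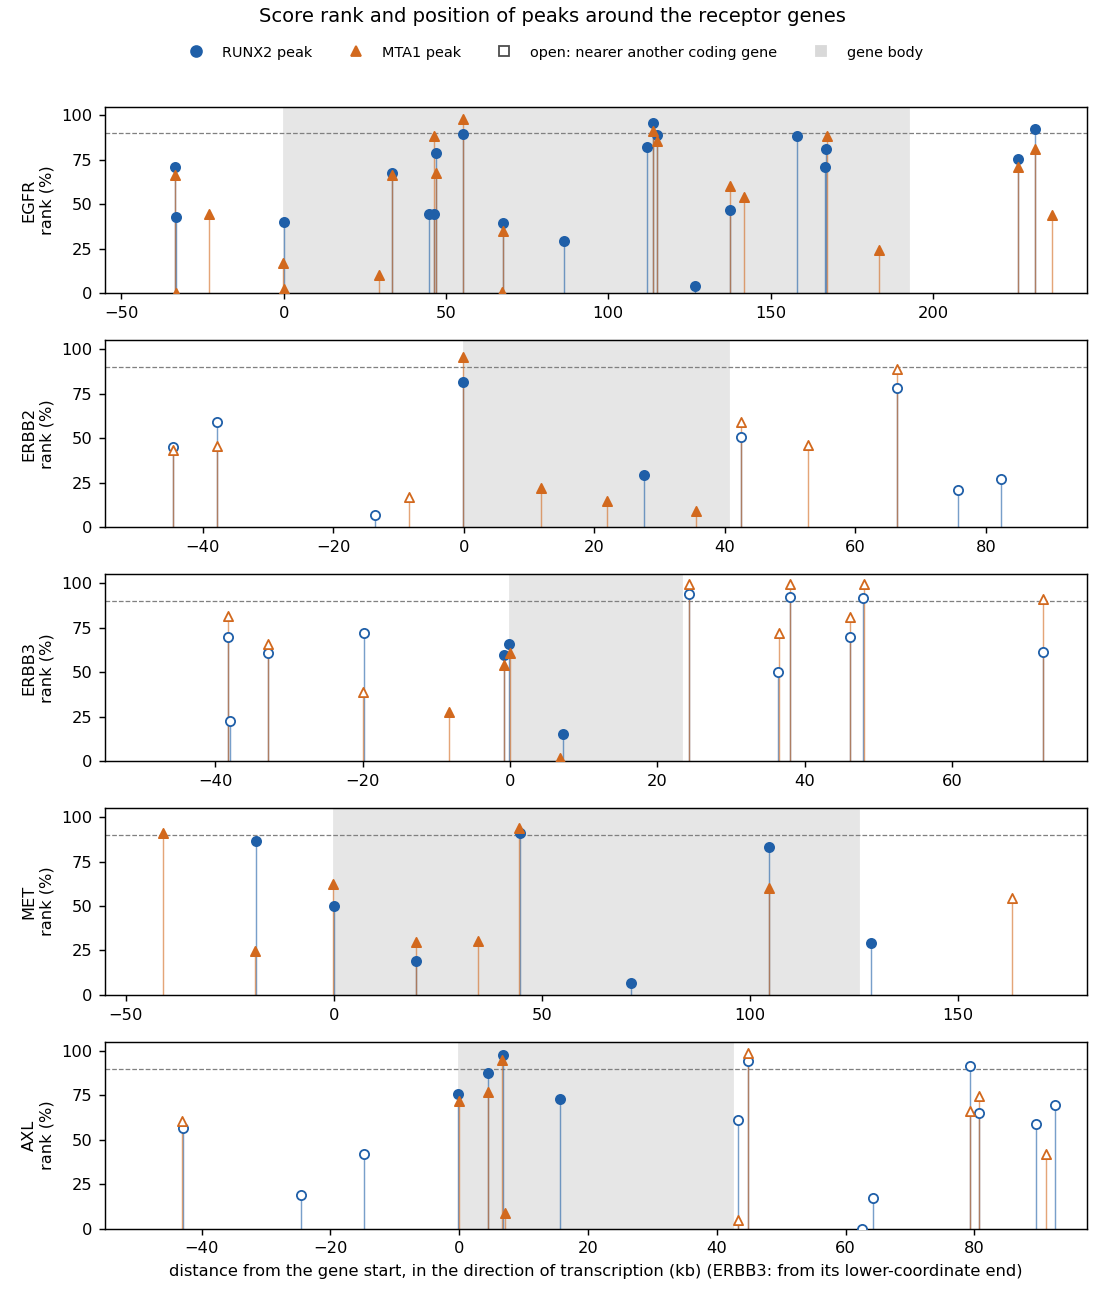
Score rank of every peak (vertical axis, percent of its own list with a lower score) against the distance of its centre from the gene start in kb, for the receptor genes. Blue circles are RUNX2 and orange triangles MTA1, grey marks the gene, open symbols are peaks nearer to another protein-coding gene, and the dashed line is rank 90. EGFR, MET and AXL have peaks above the line inside the gene, and ERBB2 has an MTA1 peak above it at its outermost start. Those of the ERBB3 window are all open symbols.

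Among the ligands, AREG and EREG had few peaks. No RUNX2 peak lay inside AREG, and its start carried only an MTA1 peak of rank 4.94 centred 349 bp after it. A further MTA1 peak inside AREG ranked 46.6, the highest MTA1 rank of its region. The strongest peak of this region was 56.6 kb downstream of the AREG start, a RUNX2 peak of rank 94.2 (chr4:74501626-74501881) over an MTA1 peak of rank 39.1. At EREG the highest RUNX2 rank was 76.4, for a peak without a partner 29.8 kb after the start. The highest MTA1 rank was 53.8, for a peak 9.68 kb into the gene that overlapped a RUNX2 peak of rank 68.8. The start of EREG had no peak, the closest of either list being 9.62 kb away by the distance of its centre.

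HBEGF carried its strong peaks beyond its 3′ end. A pair 23.1 kb downstream of the start, at chr5:140323285-140323634 in the RUNX2 list, ranked 97.2 for RUNX2 and 93.9 for MTA1. Right beside it, chr5:140322791-140323200 ranked 90.9 with an MTA1 partner of rank 69.8. The highest MTA1 rank of the region, 98.6, was at chr5:140295405-140295707 inside PFDN1, where RUNX2 ranked 80.3. At the start of HBEGF the RUNX2 peak ranked 82.3 and the MTA1 peak 40.3, and the 2 further RUNX2 peaks inside the gene, of rank 41.8 and 44.2, stood alone.

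TGFA had the highest RUNX2 ranks of all members, in 2 peaks far from its start. The first, chr2:70596678-70597066, ranked 99.4 and lay 43 kb upstream, and the second, chr2:70471234-70471545, ranked 99.2 and lay 82.4 kb into the gene, where it also overlapped the transcript TGFA-IT1. The MTA1 peaks under them ranked 68.6 and 62.6. The highest MTA1 rank at TGFA was 82.3, for a peak 12 kb into the gene whose RUNX2 partner ranked 74.4. The RUNX2 peak at the start ranked 72.4 and overlapped 2 MTA1 peaks, of rank 70.2 and 37.4. TGFA had 7 RUNX2 peaks without an MTA1 partner and 1 MTA1 peak without a RUNX2 partner.

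**Figure D3:**
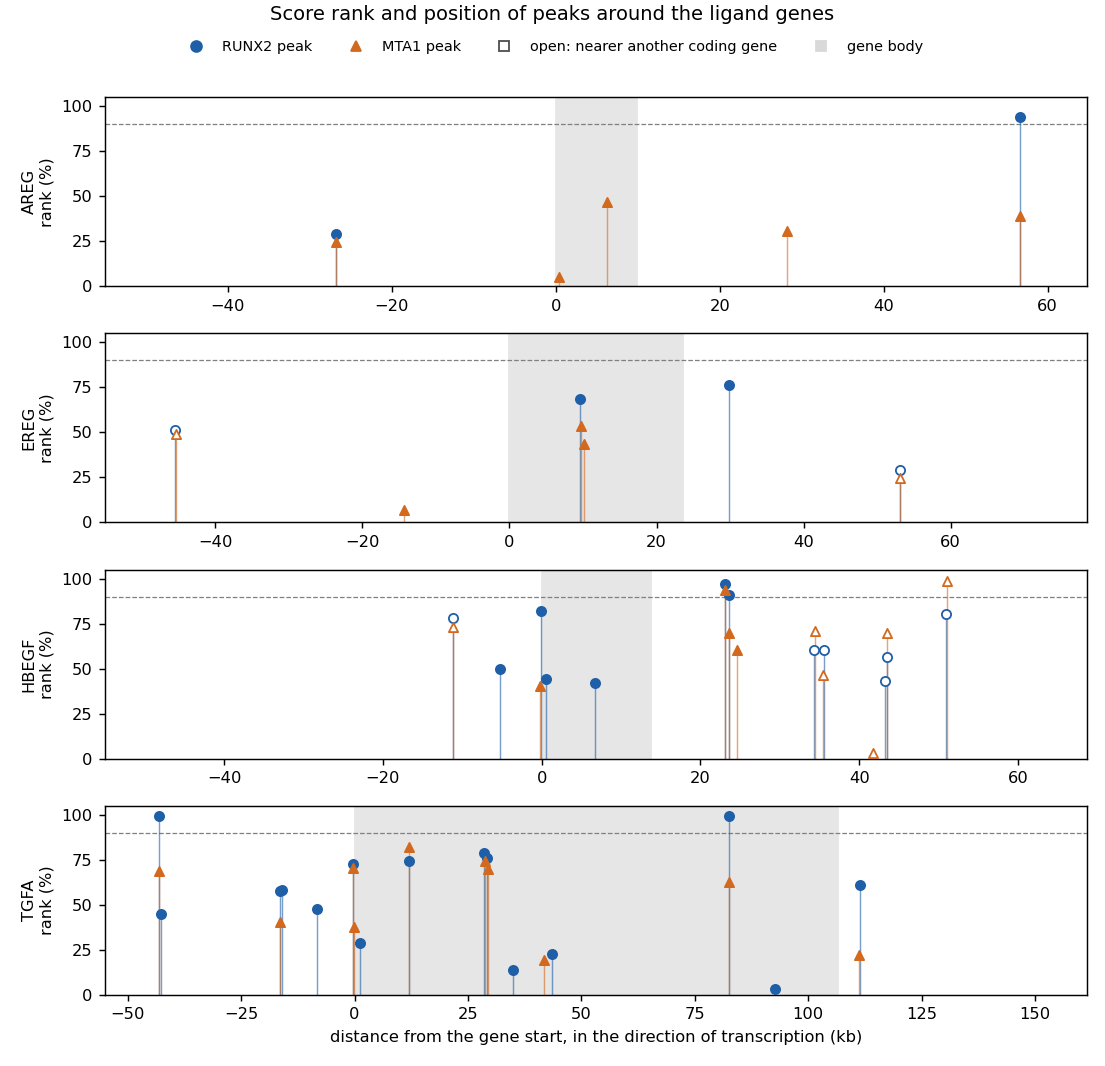
Score rank of every peak against the distance of its centre from the gene start in kb for the ligand genes, drawn as for the receptor genes. The 2 RUNX2 peaks near rank 99 at TGFA stand above their MTA1 partners, and AREG and EREG have few peaks.

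Peaks close to a gene end were looked at next, since the study named target genes by binding near promoters. Within 3 kb of an end, 7 of 9 members had a RUNX2 peak, 8 had an MTA1 peak and 7 had both, against 59.9%, 59.1% and 51.9% of protein-coding genes. EREG had neither, and AREG had the MTA1 peak of rank 4.94 alone. The ranks of the peaks over the outermost starts spread widely. For RUNX2 they ran from 39.9 at EGFR to 82.3 at HBEGF, and for MTA1 from 2.54 at EGFR to 95.5 at ERBB2, where the peak also overlaps PGAP3.

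The positions of the RUNX2 and MTA1 peaks were then compared. In the regions of the members, 63 of 96 RUNX2 peaks had 1 bp or more in common with an MTA1 peak (65.6%, interval 55.2% to 75%), against 45.4% of the whole RUNX2 list. From the MTA1 side, 65 of 91 peaks were shared (71.4%, 61% to 80.4%), against 65.5% of its list. Over the whole lists 90.6% of RUNX2 and 99.1% of MTA1 peaks of the highest decile were shared, and member peaks ranked above the middle of their lists, with medians of 61 and 60.2. When the share of each list was weighted to the score deciles of the member peaks it was 55.5% for RUNX2, which is inside the interval of the members, and 69.6% for MTA1. All 14 RUNX2 peaks of the highest decile were shared, as were 12 of 13 for MTA1, and in 8 cases both partners were in the highest decile. The intervals of receptor and ligand regions overlapped, at 67.2% (54.3% to 78.4%) and 62.5% (43.7% to 78.9%) of RUNX2 peaks and 71% (58.1% to 81.8%) and 72.4% (52.8% to 87.3%) of MTA1 peaks. Narrow peaks were seldom shared, as in the whole lists. Of the 14 RUNX2 peaks at the narrowest width of the list, 99 bp, 2 were shared, and of the 18 MTA1 peaks at its narrowest width, 116 bp, 5 were, whereas 61 of 82 and 60 of 73 wider peaks were. Those narrow shares, 14.3% and 27.8%, compare with 12.4% and 28.1% of all peaks of that width.

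The relative rank of partners differed from region to region. The peaks formed 65 overlapping pairs with centres a median of 22 bp apart, and RUNX2 had the higher rank in 40, with a median RUNX2 rank minus MTA1 rank of 3.84 points. Over all 28440 pairs of the lists the centres were a median of 33 bp apart. RUNX2 ranked higher in 57.3% of those pairs, with a median difference of 3.66 points, so in rank the members as a whole were close to the lists. RUNX2 ranked higher in 17 of 21 pairs at the ligands, 8 of 9 at TGFA among them, and in 23 of 44 at the receptors. MTA1 ranked higher more often in the regions of 3 receptors, in 8 of 11 pairs at ERBB3, 3 of 5 at ERBB2 and 3 of 5 at MET, with median differences of -7.29, -8.04 and -2.71 points. All 8 such pairs at ERBB3 lay nearest to other genes, and in the pairs nearest to ERBB3 RUNX2 ranked higher, by 5.82 and 4.64 points. Those at ERBB2 were the pair at the outermost start, which also overlaps PGAP3, and pairs nearest to MIEN1 and IKZF3. Those at MET lay inside the gene. The pairs of one region share their neighbourhood and libraries, and these counts were not tested.

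**Figure D4:**
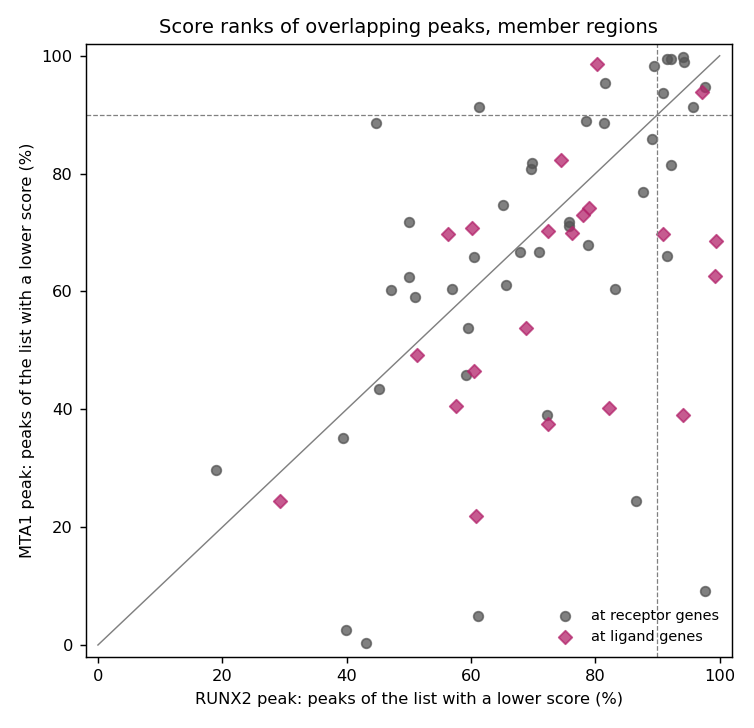
RUNX2 rank (horizontal) against MTA1 rank (vertical) of the 65 overlapping pairs, in percent of the list with a lower score. Grey circles are pairs at receptor genes and magenta diamonds pairs at ligand genes. The solid line marks equal rank and the dashed lines rank 90. Of the 21 ligand pairs, 17 lie below the line.

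Set against all 20033 protein-coding genes, the members had more peaks in their regions than a typical gene, counting also peaks nearest to neighbouring genes. The median member had 12 RUNX2 and 10 MTA1 peaks, against 5 and 4 over all genes, and 8 RUNX2 peaks with an MTA1 partner against 2. Member regions were also longer, with a median of 141 kb against 124 kb. EGFR exceeded 98.8% of genes in its number of RUNX2 peaks and 99.8% in its number of MTA1 peaks. Per 100 kb it exceeded 80.9% and 89.6%, and among genes within 1.5 times its length 95.8% and 99%. ERBB3 exceeded 92.2% and 96.9% of genes by number, AXL 95.9% and 89.8%, TGFA 95.9% and 89.8%, and HBEGF 89.1% and 89.8%. ERBB2 exceeded 75.4% and 89.8%, and MET 61.3% and 80.6%. AREG was low for RUNX2, exceeding 17% of genes, and near the middle for MTA1 at 56.8%, and EREG exceeded 34.7% and 56.8%. By highest score, TGFA exceeded 96.7% of genes for RUNX2 but 47.3% for MTA1, and ERBB2 exceeded 44.6% for RUNX2 but 76.6% for MTA1.

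**Figure D5:**
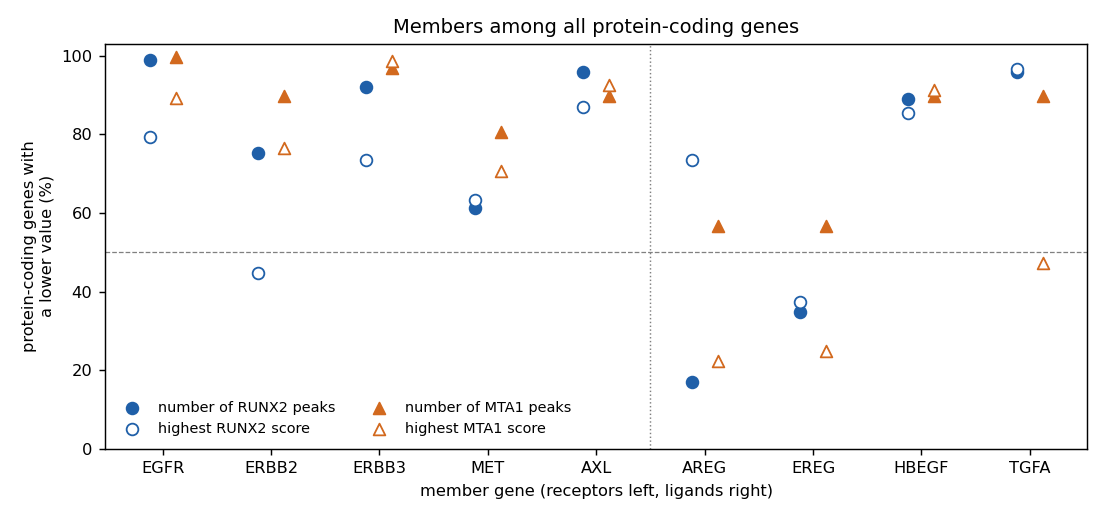
Percent of 20033 protein-coding genes with a lower value than each member, for the number of peaks (filled) and the highest score (open) in the region. RUNX2 is shown as blue circles and MTA1 as orange triangles, and the dashed line marks 50%. EGFR is above 98% of genes by number in both lists, and AREG exceeds 17% by its number of RUNX2 peaks.

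The genes most like EGFR, over the percentiles of both peak numbers and both highest scores, were TMEM107, VAMP2 and BORCS6. They held 20, 18 and 17 RUNX2 peaks and 16, 15 and 15 MTA1 peaks. All 3 lie on chromosome 17 with the same highest ranks, 95.8 for RUNX2 and 98.1 for MTA1, from peaks that their regions have in common, and they therefore count as 1 neighbourhood.

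Other genes of these pathways were counted from a list of 34 further receptors, ligands, ligand-releasing proteins, adaptors, effectors and negative regulators, all found in the annotation. Every one had a peak of each list inside it or within 50 kb, and 32, all but ERBB4 and EGF, had an overlapping pair. Highest ranks given below are those of the same regions. Whether these peaks lay nearest to a neighbouring gene, as many did at the members, was not analysed for this list. Peaks of the highest decile came from both lists at 14 genes and from neither list at 10. Shares of all protein-coding genes with both or neither were not computed. A RUNX2 peak of the highest decile was present at 17 and an MTA1 peak of that kind at 21, where 38.8% and 38.9% of protein-coding genes had a peak of the respective list. For the ligand-releasing proteins this held at 3 of 3 in both lists, namely ADAM17 and ADAM10, the proteases that shed the EGFR ligands, and RHBDF2, which helps mature ADAM17. Among 11 ligands it held at 4 in each list, near the share of all protein-coding genes, with GAS6, the ligand of AXL, at 99.4 for RUNX2 and 96.3 for MTA1. Among the 4 further receptors it held at 2 in each list. MERTK, a relative of AXL, had highest ranks of 98.7 and 98.4, and MST1R, a relative of MET, 97.7 and 98.1. ERBB4, with 2 RUNX2 peaks and 1 MTA1 peak, and TYRO3 had no peak of the highest decile. STAT3, a transcription factor activated by these receptors, had highest ranks of 99.4 and 99.7, and the adaptor GRB2 97.4 and 99.1. Of the 5 negative regulators, ERRFI1, which inhibits EGFR, had 93.4 and 98.9, and the phosphatase gene PTPN1 99.2 and 96.3. NRG3 and PTPN11 were among those with a strong RUNX2 peak alone, and PROS1, GAB1, GAB2, PIK3CA, SRC, CBL and LRIG1 had a strong MTA1 peak alone. Binding within 3 kb of an end was listed for RUNX2 at 26 of them, for MTA1 at 25 and for both at 23, against 59.9%, 59.1% and 51.9% of protein-coding genes. The median numbers of peaks were 7 and 6, between those of the members and of all protein-coding genes.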

How the data were processed

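The authors deposited 1 list of peaks per CUT&Tag library, with a position and a score for each peak, and the depth of the libraries is unknown. Per the labels' processing notes, CASAVA 1.4, Bowtie 0.12.8, MACS, MACS2 and hg19 were named, without roles, order or a threshold. The labels name another antibody supplier than the methods of the study, and describe end repair, ligation and gel sizing, which is not usual for CUT&Tag.

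Starts in the deposited lists were converted so that all printed positions are 1-based. Mitochondrial peaks, 17 for RUNX2 and 15 for MTA1, did not enter. The score served only as a rank within its list. Genes came from RefSeq GRCh38.p14, from which strand and promoter windows of 300 bases were used where given. Overlap needed at least 1 bp. No p-value was computed, since peaks are not replicates. The steps were tested on simulated data. The analysis ran in Python 3.11.15 with pandas 2.3.3, numpy 2.4.6 and scipy 1.17.1, and matplotlib 3.10.9 drew the figures.

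The members, lists and measures were chosen with earlier results of these data known. Named were the 9 members, with the highest peak of each list and those of the highest decile, further pathway genes with such a peak (not all are reported here), neighbouring genes nearer to a named peak, and the 3 genes nearest to EGFR over 4 percentiles. Peaks at starts and those without a partner were named after their values were seen. Alternatives were other windows, score and width filters, merging, other overlap rules, gene length and other motif letters.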

Additional observations from a re-analysis of the deposited data

How the results depend on the processing

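No paired analysis was possible because each antibody had 1 library. The search for RUNX letters in the peaks needs a genome sequence and was not run. Depth is unknown, so a missing peak can be a weak one. Inside the genes alone, 41 RUNX2 and 39 MTA1 peaks were left, 4 and 5 of them in the highest decile, and the median percentile of the members among protein-coding genes by number of peaks, 89.1 for RUNX2 and 89.8 for MTA1 as reported, became 77.5 and 90.6. With a window of 10 kb there were 54 and 52 peaks, 8 and 8 in the highest decile, and the percentiles were 88.0 and 88.7, and with 100 kb the percentiles were 84.6 and 88.5. At or above the median score 62 and 51 peaks were left, with percentiles of 90.5 and 88.5, 86.3% of MTA1 peaks were shared, and 5 members had an MTA1 peak at an end. When each list was limited to its 10000 highest scores the numbers were 19 and 22, with percentiles of 72.6 and 66.7, 54.5% of MTA1 peaks were shared, and 2 members had a RUNX2 peak at an end, 3 an MTA1 peak and 2 both. Leaving out the narrowest peaks gave 80.8% for MTA1 and percentiles of 95.4 and 92.2. Peaks inside a member or nearest to one numbered 61 for RUNX2, and 9 RUNX2 and 7 MTA1 peaks of the highest decile were of this kind. The percentiles were 80.4 and 89.3 after merging within 500 bp, 80.9 and 89.2 per 100 kb, and 91.9 for RUNX2 among genes within 1.5 times the length. With TGTGGT alone or TGTGGTT, 0 of 8 members held the letters. Narrower windows and the filters remove peaks by construction, and the window of 100 kb adds them, giving 136 RUNX2 and 124 MTA1 peaks. The share of RUNX2 peaks that overlapped an MTA1 peak stayed inside its interval under every alternative tried, between 58.3% and 71%. Most alternatives reuse the same peaks, the interval is wide, and the share of the whole list is not given for each. This range is therefore no independent check of the share.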
